A study of Mus musculus with 8 samples.

Results

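A set of 10 genes that mark tuft cells of the gut were described in fresh crypts of wild-type mice, taken from the small intestine (SI) or from the colon (COL). Dclk1, Trpm5, Pou2f3, Il25, Avil, Gnat3, Sucnr1, Alox5, Ptgs1 and Hpgds were chosen by symbol, and all 10 were found among the 45706 genes counted in both tissues. The mice were C57BL/6N, 2 female (mice 1 and 5) and 2 male (mice 2 and 3), with no transgene, deletion or treatment named in the labels and no age given. Crypts are the pockets of the epithelium that hold its stem cells, and they were released by EDTA chelation before total RNA was sequenced. Each mouse gave 1 SI and 1 COL library, named SI1 to SI4 and COL1 to COL4, and mouse 5 gave SI4 and COL4. Crypts hold many cell types, so in these bulk libraries fewer tuft cells and less RNA per tuft cell cannot be told apart.

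Tuft cells are rare chemosensory cells of the epithelium. They depend on the transcription factor Pou2f3, carry receptors for luminal metabolites such as succinate, and pass the signal on through taste-type G proteins and the cation channel Trpm5. They release interleukin 25, which acts on group 2 innate lymphoid cells, and lipid mediators, among them prostaglandin D2 and cysteinyl leukotrienes. Interleukin 13 returned by the lymphoid cells in the SI is known to expand the tuft and goblet cells after infection with worms or protists.

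Total counts ranged from 21156329 to 30368676 in SI and from 15969428 to 32908060 in COL. Levels are given as CPM, counts scaled to the TMM-normalised library size, and log2 fold changes are SI minus COL, so that positive values are higher in SI. A difference was called at an adjusted p below 0.05 in edgeR's quasi-likelihood test over the 14491 genes with enough counts. The mitochondrial share of the counts lay between 4.83% and 7.35% in SI1, SI4, COL3 and COL4 and between 22.7% and 50.8% in the other 4 libraries. A comparison within low shares sets SI1 and SI4 against COL3 and COL4, where only mouse 5 gave both tissues. Within high shares it sets SI2 and SI3 against COL1 and COL2, where only mouse 2 gave both. Such comparisons are given below without a test. In SI the low shares are those of the female mice, so that sex and mitochondrial share cannot be told apart there. The summed markers of SI enterocytes were at least 35076 CPM in SI and at most 104 CPM in COL, and those of colonocytes were at most 1194 CPM in SI and at least 4613 CPM in COL. Of the 5 colonocyte markers, 3 were called higher in COL, 1 was called higher in SI and 1 was not called. SI1 stood apart, with 12.3 CPM for the 4 crypt stem cell markers against 188 to 290 CPM in the other SI libraries, and with the highest enterocyte sum, 94629 CPM.

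Pou2f3 belongs to the POU family, whose members bind the octamer ATGCAAAT, and the 250 bases before each gene's start were searched for it on both strands. RefSeq start sites (GRCm38.p6) were at hand for 8 of the 10 genes, in 9 windows because Dclk1 has 2. The octamer was found in 2 of them, those of Sucnr1 and Hpgds, and in 526 of all 32851 mouse windows of that length (1.6%). These 2 are shown because they hold the motif and because the 2 genes, as the values show, lie apart between SI and COL in opposite directions, Sucnr1 on few counts. Ptgs1 lies apart too, and its window holds no octamer. A link between the motif and the levels was not tested. The Sucnr1 window is chr3:60081619-60081868 on the + strand, and the octamer, in capitals, begins 48 bases before the start. For Hpgds the 30 bases round the octamer are given, chr6:65144886-65144915 on the - strand. There the octamer begins 174 bases before the RefSeq start, but GENCODE places the start of Hpgds further upstream. By that annotation the octamer covers bases 5 to 12 of the gene and does not lie before its start. A match of letters is a description and no sign of binding.
Sucnr1 promoter: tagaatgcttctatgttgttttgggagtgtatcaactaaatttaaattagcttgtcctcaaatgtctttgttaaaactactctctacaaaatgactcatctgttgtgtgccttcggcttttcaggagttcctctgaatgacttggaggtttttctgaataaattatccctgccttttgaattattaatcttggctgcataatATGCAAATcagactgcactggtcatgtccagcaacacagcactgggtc
Hpgds octamer: ctttactctttATGCAAATacgttggacta

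Of the 10 tuft cell genes, 8 had enough counts to be tested. Hpgds was called higher in COL, none was called higher in SI, and 7 did not pass the test. Ptgs1 was the closest to a call in the direction of SI. Over all genes tested, 28.4% were called, 15.5% higher in SI and 12.9% higher in COL. The median log2 fold change of the 8 genes was 0.02, against -0.09 over all genes. Summed over the 10 genes, the level was 75.0 ± 19.1 CPM (SD, n = 4) in SI and 66.7 ± 5.91 CPM in COL. The lowest and the highest sum were both SI libraries, SI4 with 51.6 CPM and SI2 with 94.98 CPM.

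**Figure D1:**
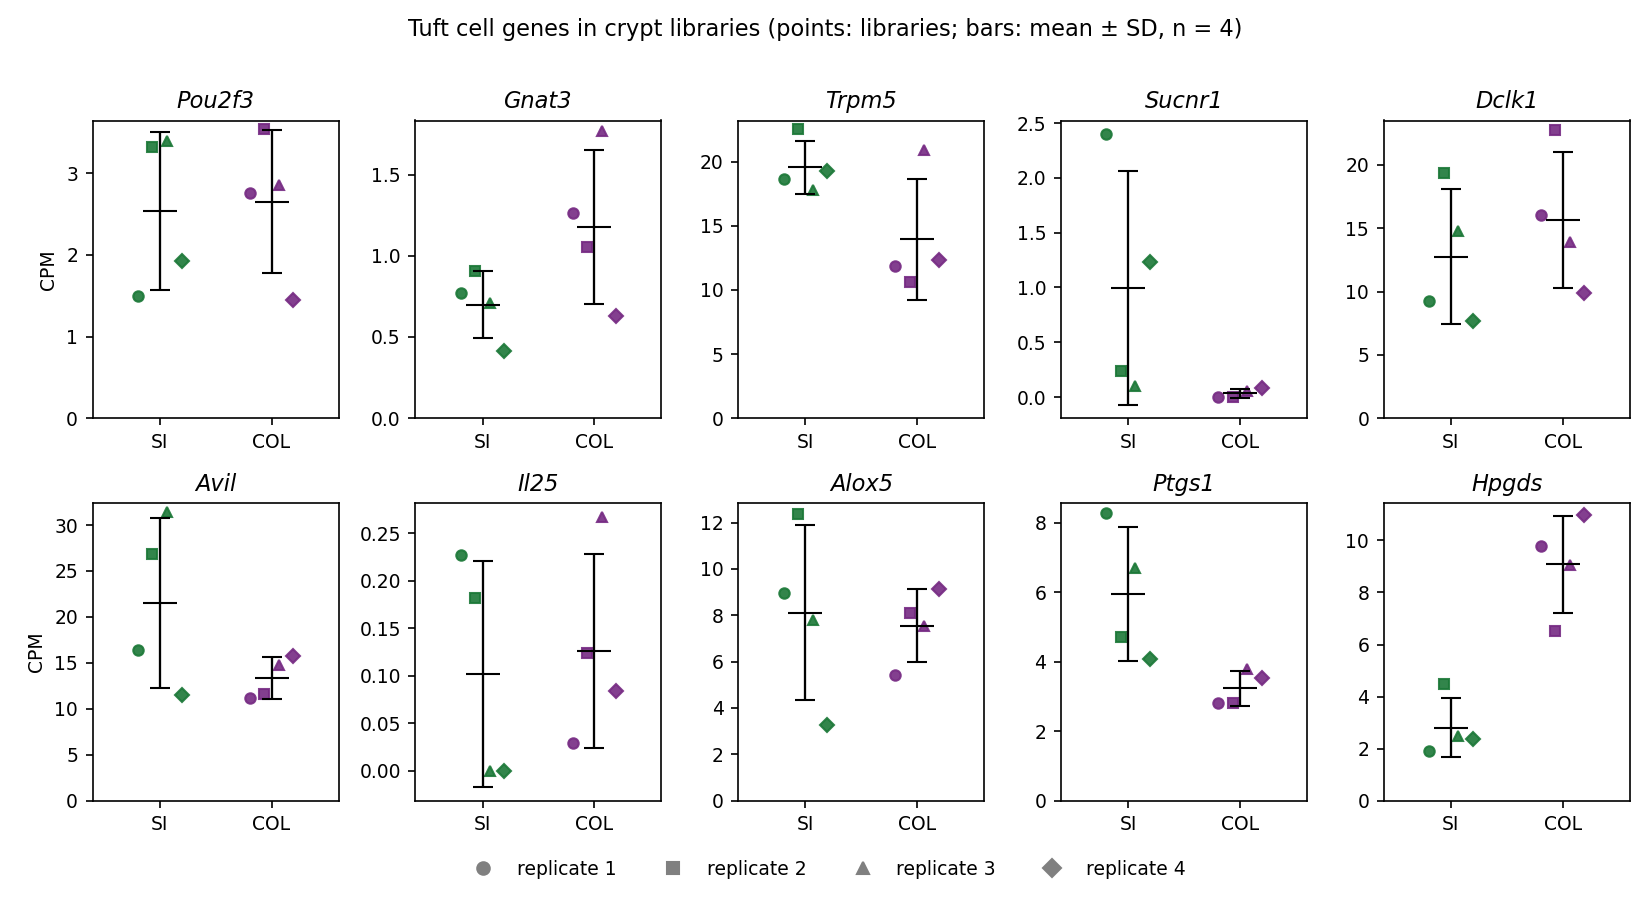
CPM of the 10 tuft cell genes in each library, on a linear axis of its own for each gene. Symbols mark the replicate, and black bars the mean ± SD over 4 libraries. Hpgds lies higher in all COL libraries (6.53 to 10.97 CPM) than in any SI library (1.90 to 4.47 CPM), Ptgs1 and Sucnr1 lie lower in all COL libraries, and the ranges of the other 7 genes overlap.

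Pou2f3 (chr9:43123939-43210369, - strand), the factor that tuft cells require, was at nearly the same level in both tissues. The counts were 33, 55, 67 and 42 in SI1 to SI4 and 94, 57, 107 and 69 in COL1 to COL4. This gave 1.49, 3.32, 3.40 and 1.92 CPM in SI and 2.76, 3.54, 2.86 and 1.44 CPM in COL, ranges that overlap nearly in full. The means were 2.53 ± 0.97 CPM in SI against 2.65 ± 0.88 CPM in COL (SD, n = 4). The log2 fold change was -0.06 (SE 0.48, adjusted p = 0.935, edgeR), with a 95% interval from -1.11 to 0.99.

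Gnat3 (chr5:17962549-18019834, + strand) encodes gustducin, the alpha subunit of the taste G protein. Its counts were low, with 17, 15, 14 and 9 in SI and 43, 17, 66 and 30 in COL. The levels were 0.77, 0.91, 0.71 and 0.41 CPM in SI1 to SI4 and 1.26, 1.06, 1.77 and 0.63 CPM in COL1 to COL4. Gnat3 was lower in the SI library of each of the 4 mice, but the ranges overlap. The log2 fold change of -0.75 (SE 0.59, adjusted p = 0.372, edgeR) did not pass the test, and its 95% interval runs from -2.04 to 0.54.

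Trpm5 (chr7:143069153-143094642, - strand) is the channel that depolarises tuft and taste cells. It had 412, 373, 351 and 420 counts in SI and 405, 171, 781 and 588 in COL, or 18.7, 22.5, 17.8 and 19.2 CPM against 11.9, 10.6, 20.9 and 12.3 CPM. COL3 alone reached the range of SI, and the other COL libraries lay below it. The means were 19.6 ± 2.07 and 13.9 ± 4.70 CPM (SD, n = 4). The log2 fold change of 0.49 (SE 0.28, adjusted p = 0.223, edgeR) did not pass the test. Trpm5 overlaps in exon sequence with Tssc4 on the opposite strand, which had 156 to 1328 counts per library, and how the strand was used in counting is not stated.

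Sucnr1 (chr3:60081869-60087566, + strand), the receptor through which SI tuft cells sense succinate, was detected mainly in 2 SI libraries. Its counts were 53, 4, 2 and 27 in SI1 to SI4 and 0, 0, 2 and 4 in COL1 to COL4, too few for the test over all genes. The levels were 2.40, 0.24, 0.10 and 1.24 CPM in SI and 0, 0, 0.053 and 0.084 CPM in COL. On this scale the groups do not overlap, and the exact two-sided permutation test over the 70 assignments of the libraries gave p = 0.0286, the smallest it can give with 4 libraries each, for a difference of 2.42 in mean log2(CPM + 0.1). The size depends on the offset and was 0.80 in mean log2(CPM + 1), with the same p by the exact permutation test. Sucnr1 was higher in the SI library of all 4 mice, but an exact sign-flip test of the differences within the mice, which has 16 assignments, gave p = 0.125, the smallest it can give. The separation is narrow at the low end. A count of 0 in COL2 allows up to 0.186 CPM (3 counts, counting error only), above the level in SI3, and when CPM were scaled by library size alone SI3 (0.081 CPM) fell below COL4 (0.122 CPM) and the exact permutation p was 0.0571. Leaving out a COL library in turn gave an exact permutation p of 0.0571 to 0.0857. When genes of low counts were kept in the fit over all genes, Sucnr1 was called higher in SI at a log2 fold change of 4.52 (adjusted p = 0.00386, edgeR).
The libraries with most Sucnr1, SI1 and SI4, are those of the female mice, with the low mitochondrial shares. They also have the highest sums of SI enterocyte markers (94629 and 59261 CPM, against 35076 and 36737 CPM in SI2 and SI3) and of the 5 pan-leukocyte markers (86.6 and 60.9 CPM, against 43.2 and 32.95 CPM). The part of these in the Sucnr1 values was not tested.

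Dclk1 (chr3:55242364-55539068, + strand) encodes a microtubule-associated kinase and is the most used marker of intestinal tuft cells. It had 204, 320, 291 and 168 counts in SI and 547, 366, 519 and 473 in COL. The levels were 9.24, 19.3, 14.8 and 7.69 CPM in SI1 to SI4 and 16.05, 22.7, 13.9 and 9.91 CPM in COL1 to COL4. The ranges overlap, and in both tissues the library of mouse 2 was the highest and that of mouse 5 the lowest. The means were 12.8 ± 5.33 CPM in SI against 15.6 ± 5.38 CPM in COL (SD, n = 4), and the log2 fold change of -0.29 (SE 0.37, adjusted p = 0.591, edgeR) did not pass the test. The result depended on the scaling. With library size alone, Dclk1 was called higher in COL at a log2 fold change of -0.98 (adjusted p = 0.0456, edgeR), but that scaling moved the median of all genes by -0.73, and relative to the median Dclk1 was at -0.20 with TMM and -0.16 without.

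Avil (chr10:127000709-127020994, + strand) encodes advillin, an actin-binding protein of the villin family. Its counts were 361, 445, 619 and 250 in SI and 381, 187, 550 and 753 in COL, which gave 16.4, 26.9, 31.4 and 11.4 CPM against 11.2, 11.6, 14.7 and 15.8 CPM. SI2 and SI3, the male mice with high mitochondrial shares, had the highest levels, SI1 lay just above the highest COL library, and SI4 lay within the range of COL. The log2 fold change of 0.69 (SE 0.34, adjusted p = 0.150, edgeR) did not pass the test. Within the libraries of low mitochondrial share the difference in mean log2 CPM was -0.15 and within those of high share 1.34, with no test. Of the 50-base stretches of the Avil transcript, 4.02% also occur in a transcript of Tsfm, an overlapping gene on the opposite strand with 252 to 2086 counts per library, so reads in this stretch are uncertain.

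Il25 (chr14:54932695-54935837, + strand), the cytokine by which tuft cells act on lymphoid cells, was close to the limit of detection. It had 5, 3, 0 and 0 counts in SI and 1, 2, 10 and 4 in COL, 8 and 17 in all. A count of 0 allows up to 0.152 CPM in SI3 and 0.137 CPM in SI4. The levels, 0 to 0.226 CPM in SI and 0.029 to 0.267 CPM in COL, overlap, and the exact two-sided permutation test gave p = 0.657. A difference between SI and COL was not detectable at this depth.

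Alox5 (chr6:116410077-116461178, - strand) encodes 5-lipoxygenase, which starts leukotriene synthesis from arachidonic acid. Its counts were 198, 205, 154 and 71 in SI and 185, 130, 282 and 437 in COL, or 8.97, 12.4, 7.81 and 3.25 CPM against 5.43, 8.08, 7.54 and 9.15 CPM. The COL values lie inside the range of SI. The log2 fold change was 0.10 (SE 0.40, adjusted p = 0.877, edgeR), with a 95% interval from -0.78 to 0.98, and it took the opposite sign with library size scaling (-0.65) and with limma-voom (-0.06).

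Ptgs1 (chr2:36230426-36252272, + strand) encodes cyclooxygenase 1, the constitutive enzyme that makes prostaglandin H2. The counts were 183, 78, 132 and 89 in SI and 96, 45, 142 and 168 in COL. All SI libraries, with 8.29, 4.71, 6.69 and 4.07 CPM, lay above all COL libraries, with 2.82, 2.80, 3.80 and 3.52 CPM. The means were 5.94 ± 1.92 and 3.23 ± 0.50 CPM (SD, n = 4), and SI was higher in all 4 mice. The log2 fold change of 0.88 (SE 0.37) had an adjusted p of 0.0984 (unadjusted p = 0.0359, edgeR), so it was not called. Groups that do not overlap were found for 2 of the 8 tuft cell genes tested, Ptgs1 and Hpgds, and for 33.5% of all genes tested. The pan-leukocyte markers, of which none was called, summed to 32.95 to 86.6 CPM in SI and 14.1 to 53.5 CPM in COL, and the lymphocyte markers to 34.0 to 84.3 CPM and 6.21 to 31.3 CPM. Of the 5 lymphocyte markers tested, 2 were called higher in SI (40%, against 15.5% of all genes tested) and 3 were not called. The part of these leukocyte and lymphocyte markers in the Ptgs1 values was not tested. With library size scaling the log2 fold change of Ptgs1 was 0.11 (adjusted p = 0.837, edgeR), and relative to the median of all genes it was 0.96 with TMM and 0.93 without.

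Hpgds (chr6:65117293-65144908, - strand), the hematopoietic prostaglandin D synthase that turns prostaglandin H2 into prostaglandin D2, was the tuft cell gene called different between the tissues. Its counts were 42, 74, 49 and 52 in SI1 to SI4 and 333, 105, 338 and 524 in COL1 to COL4. The levels were 1.90, 4.47, 2.48 and 2.38 CPM in SI and 9.77, 6.53, 9.04 and 10.97 CPM in COL. The groups do not overlap, and COL was higher in all 4 mice, though in mouse 2 the values of 4.47 and 6.53 CPM are close. The means of 2.81 ± 1.14 and 9.08 ± 1.88 CPM (SD, n = 4) gave a 3.24-fold higher level in COL, at a log2 fold change of -1.70 (SE 0.38, adjusted p = 0.00581, edgeR).
The call was kept when any of the 8 libraries was left out, with log2 fold changes from -1.99 to -1.53, and the difference in mean log2 CPM was -2.17 within the libraries of low and -1.23 within those of high mitochondrial share. Relative to the mean log2 CPM of the other tuft cell genes tested, Hpgds lay at -1.61 to -0.78 in SI and at 0.14 to 1.17 in COL. On this measure Avil was the only other of the 8 without overlap, higher in SI. Its gap was narrow, with 1.774 in SI4 against 1.763 in COL4, and the mean it is set against includes Hpgds. Of all genes tested, set against the mean of the tuft cell genes, 27.4% did not overlap.
Mast cells are another known source of Hpgds. The 8 mast cell markers summed to 0.23 to 1.54 CPM in SI and 0.65 to 2.86 CPM in COL. Cpa3, a defining marker, had at most 7 counts in any library. Cma1 had 0 counts in each SI library and 6, 28, 27 and 40 in COL1 to COL4, and Tpsb2 had 10, 0, 0 and 0 in SI and 15, 9, 24 and 21 in COL. Most of the COL sum came from Cma1 and Tpsb2. The other markers of the list together leaned to SI, higher in SI1 to SI3 than in any COL library, with SI4 within COL. The sums of the goblet cell markers also did not overlap, with 2166 to 7365 CPM in SI and 11527 to 21931 CPM in COL. Of the 5 goblet cell markers, 2 were called higher in COL (40%, against 12.9% of all genes tested) and 3 were not called. The part of these in the Hpgds difference was not tested.

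Per kilobase of exon, the order of the levels was similar at its head in both tissues. Avil led with a mean of 6.33 CPM per kb in SI and 3.92 CPM per kb in COL, followed by Trpm5 (3.06 and 2.18 CPM per kb) and Alox5 (1.97 and 1.84 CPM per kb). Ptgs1 came next in SI at 1.53 CPM per kb, while in COL, at 0.83 CPM per kb, it stood above Il25 and Sucnr1 alone. Hpgds stood above Il25 alone in SI, at 0.44 CPM per kb, and came next after Alox5 in COL, at 1.41 CPM per kb. These levels rest on the length of all annotated exons together, and the order of genes was not tested.

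**Figure D2:**
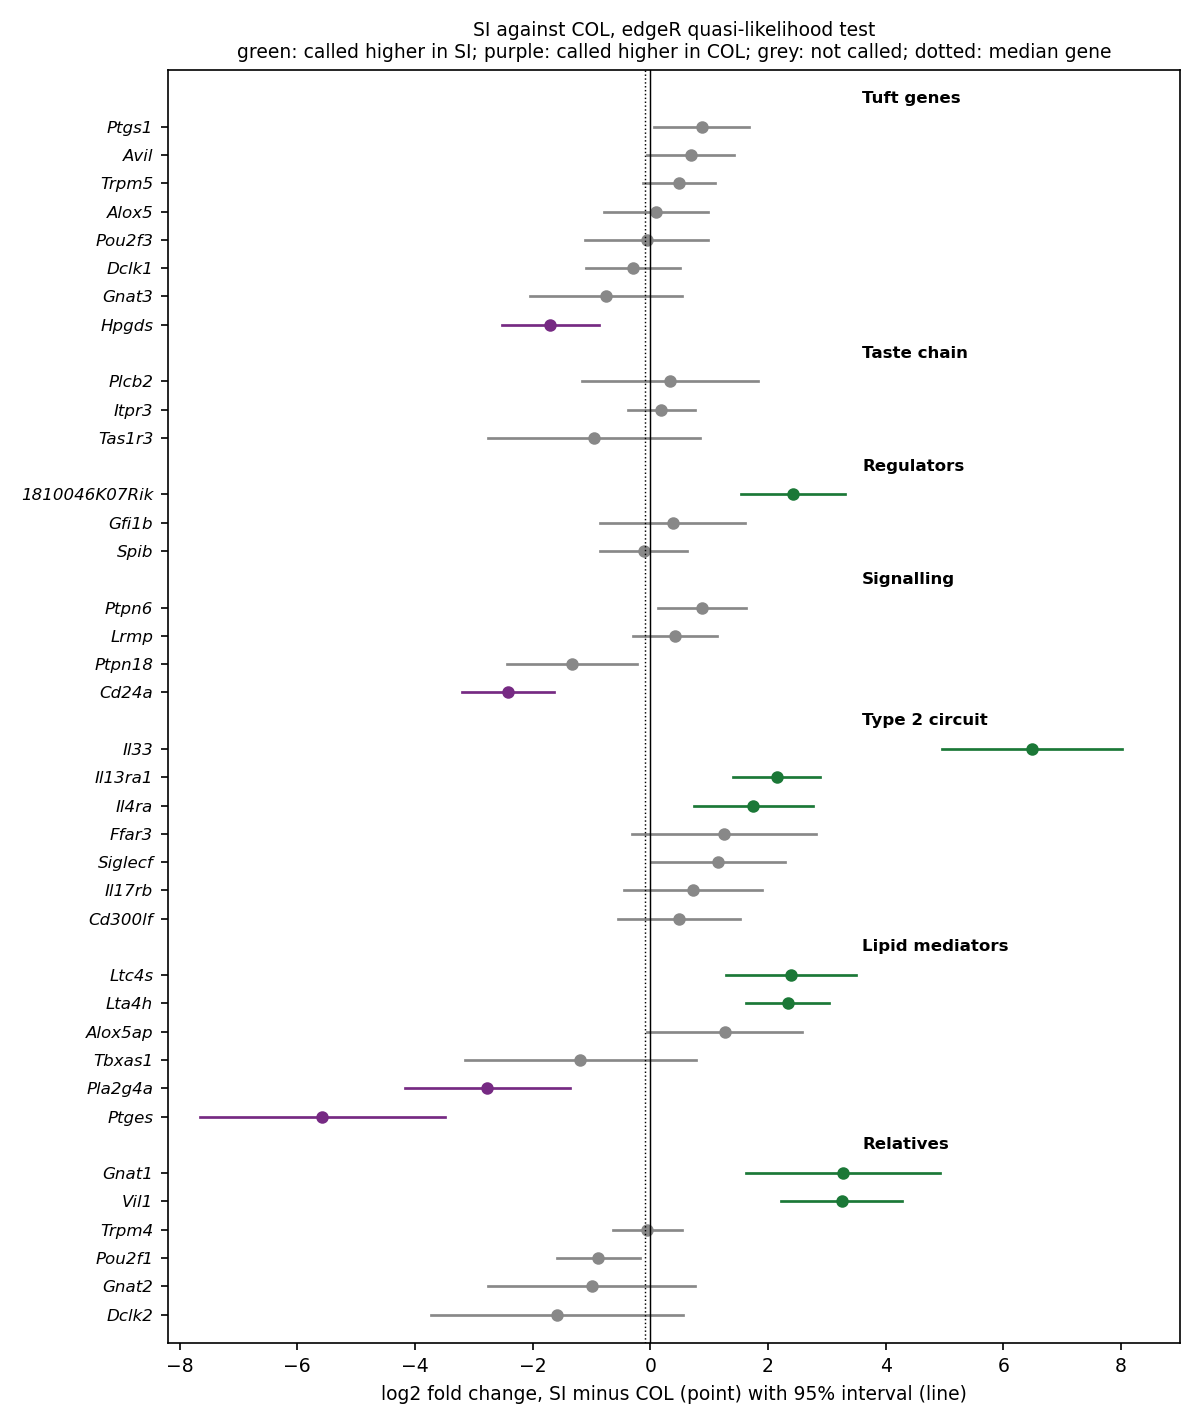
Log2 fold change (SI minus COL, points) with 95% interval (lines) for the tuft cell genes tested and for the named genes of 6 linked lists. Green points were called higher in SI, purple points higher in COL and grey points were not called, and the dotted line is the median of all genes at -0.09. Among the tuft cell genes Hpgds is the called point, at -1.70.

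Beyond the 10 genes, 52 genes linked to tuft cells by role were read from the same table, in 6 lists that share a few names. Of the 40 that could be tested, 8 were called higher in SI and 3 in COL, which is 27.5% and near the 28.4% of all genes. In the taste chain, 3 of 7 genes could be tested and none was called. The inositol trisphosphate receptor Itpr3 was at 80.0 ± 17.4 CPM in SI against 70.2 ± 12.1 CPM in COL, and the log2 fold change was 0.19 (adjusted p = 0.634, edgeR). The phospholipase Plcb2 was at 2.23 ± 1.17 and 1.78 ± 1.38 CPM and the sweet and umami receptor subunit Tas1r3 at 0.63 ± 0.51 and 1.21 ± 0.63 CPM (SD, n = 4), each with overlapping groups.

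Among the 3 regulators, 1810046K07Rik, known as a coactivator of Pou2f3, was higher in SI. It was at 21.4, 9.55, 14.3 and 23.2 CPM in SI1 to SI4 and at 1.88, 3.17, 4.87 and 2.83 CPM in COL1 to COL4. The groups do not overlap, and the log2 fold change was 2.42 (SE 0.40, adjusted p = 0.000987, edgeR). The transcription factors Gfi1b (0.38, adjusted p = 0.656, edgeR) and Spib (-0.11, adjusted p = 0.834, edgeR) were not called.

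Of the 14 signalling genes of tuft cells, all were tested and 1 was called (7.14%, against 28.4% of all genes tested). Cd24a, a surface glycoprotein that other crypt cells carry too, was at 44.5 to 66.7 CPM in SI against 159 to 429 CPM in COL, and the log2 fold change was -2.42 (SE 0.36, adjusted p = 0.000454, edgeR). The phosphatase Ptpn6 (0.88, adjusted p = 0.0738, edgeR), also a leukocyte gene, was not called, nor was Lrmp, an endoplasmic reticulum membrane protein (0.42, adjusted p = 0.372, edgeR). The phosphatase Ptpn18 lay at 3.43 to 14.4 CPM in SI against 15.7 to 39.8 CPM in COL without overlap, at -1.33 (adjusted p = 0.0706, edgeR). With the donor mouse as a block, Ptpn6 was called higher in SI (adjusted p = 0.0435, edgeR), as it was with the mitochondrial share as a covariate (adjusted p = 0.00872, edgeR). Ptpn18 was called higher in COL with the donor block (adjusted p = 0.0202, edgeR) and, this fit included, in 8 of 9 alternative fits with all libraries, at adjusted p from 0.00237 to 0.0338 (edgeR, DESeq2 or limma-voom). The exception was the stricter filter, 10 counts or more per library (adjusted p = 0.0542, edgeR). With any single library left out Ptpn18 was not called, at adjusted p from 0.0505 to 0.163 (edgeR).

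In the type 2 circuit, the exchange of signals between tuft, lymphoid and epithelial cells, 8 of 11 genes could be tested and 3 were higher in SI. That is 37.5% of those tested, against 15.5% of all genes tested. The alarmin Il33 had 502, 551, 1305 and 438 counts in SI and 4, 3, 35 and 13 in COL, and the log2 fold change was 6.48 (SE 0.70, adjusted p = 5.8e-05, edgeR). The receptor chains for interleukins 4 and 13 were also higher. Il13ra1 was at 170, 66.6, 71.0 and 100.1 CPM in SI and 19.5 to 25.9 CPM in COL (log2 fold change 2.15, adjusted p = 0.000691, edgeR). Il4ra was at 103, 96.4, 24.2 and 95.2 CPM in SI and 12.0 to 36.1 CPM in COL, so that SI3 lay within COL, and its log2 fold change was 1.75 (adjusted p = 0.0147, edgeR). With library size scaling Il4ra was not called (0.94, adjusted p = 0.138, edgeR).
The cytokines of the circuit were scarcely detected. Il13 had 2 counts in SI4 and none elsewhere, Il4 had at most 10 and Tslp at most 9 in any library. The interleukin 25 receptor chain Il17rb (0.73, adjusted p = 0.345, edgeR), the surface receptors Siglecf (1.15, adjusted p = 0.121, edgeR) and Cd300lf (0.49, adjusted p = 0.474, edgeR) and the short-chain fatty acid receptor Ffar3 (1.25, adjusted p = 0.218, edgeR) did not pass the test. Siglecf, Il4ra, Il33 and other genes of this list are also expressed by leukocytes or stromal cells, and the lymphocyte marker sum was higher in each SI library than in any COL library, as given beside Ptgs1. The marker sums of SI enterocytes and Paneth cells were also higher in each SI library than in any COL library, and those of colonocytes and goblet cells lower. The part of these cell types in the differences was not tested.

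The lipid mediator list held 8 genes next to Alox5, Ptgs1 and Hpgds, of which 6 could be tested. In either direction 66.7% of these were called, against 28.4% of all genes tested. Ltc4s and Lta4h, which act downstream of Alox5, were higher in SI. Ltc4s, the leukotriene C4 synthase, was at 6.79, 3.14, 4.61 and 3.02 CPM in SI and 0.79, 0.44, 1.15 and 0.92 CPM in COL, and the log2 fold change was 2.39 (SE 0.50, adjusted p = 0.00417, edgeR). Lta4h, the leukotriene A4 hydrolase, which many cell types express, was at 224 to 417 CPM in SI against 50.9 to 78.1 CPM in COL (2.33, SE 0.32, adjusted p = 0.000306, edgeR). Alox5ap, the protein that presents arachidonic acid to Alox5, was at 2.27 ± 1.04 CPM in SI against 0.95 ± 0.39 CPM in COL (SD, n = 4) and was not called (1.27, adjusted p = 0.140, edgeR).
Ptges, of the prostaglandin branch, and Pla2g4a, which feeds both branches, were higher in COL. Pla2g4a, the cytosolic phospholipase that frees arachidonic acid, was at 0.82, 5.26, 11.9 and 2.29 CPM in SI and 29.5, 29.0, 34.4 and 44.6 CPM in COL (-2.77, SE 0.64, adjusted p = 0.00713, edgeR). The difference in its mean log2 CPM was -4.73 within the libraries of low and -1.87 within those of high mitochondrial share. Ptges, a prostaglandin E synthase, had 0, 2, 0 and 2 counts in SI and 101, 20, 127 and 139 in COL. Its fitted log2 fold change of -5.57 (SE 0.95, adjusted p = 0.00102, edgeR) rests on 4 counts in all of SI, so its size is uncertain. Tbxas1, the thromboxane synthase, was at 0.37 to 1.93 CPM in SI against 0.43 to 7.09 CPM in COL and was not called (-1.19, adjusted p = 0.353, edgeR). Ptgs2 had at most 14 counts in any library, and Ptgds, the other prostaglandin D synthase, had 0 counts in all 8. The lymphocyte marker sums given beside Ptgs1 and the goblet cell marker sums given beside Hpgds also separate SI from COL. So do the sums of SI enterocyte and colonocyte markers, and those of Paneth cells (263 to 2952 CPM in SI, 13.4 to 72.9 CPM in COL). The mast cell marker sums overlap, with Cma1 and Tpsb2 leaning to COL and the other mast cell markers together to SI. The part of these cell types in the differences of this list was not tested.

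**Figure D3:**
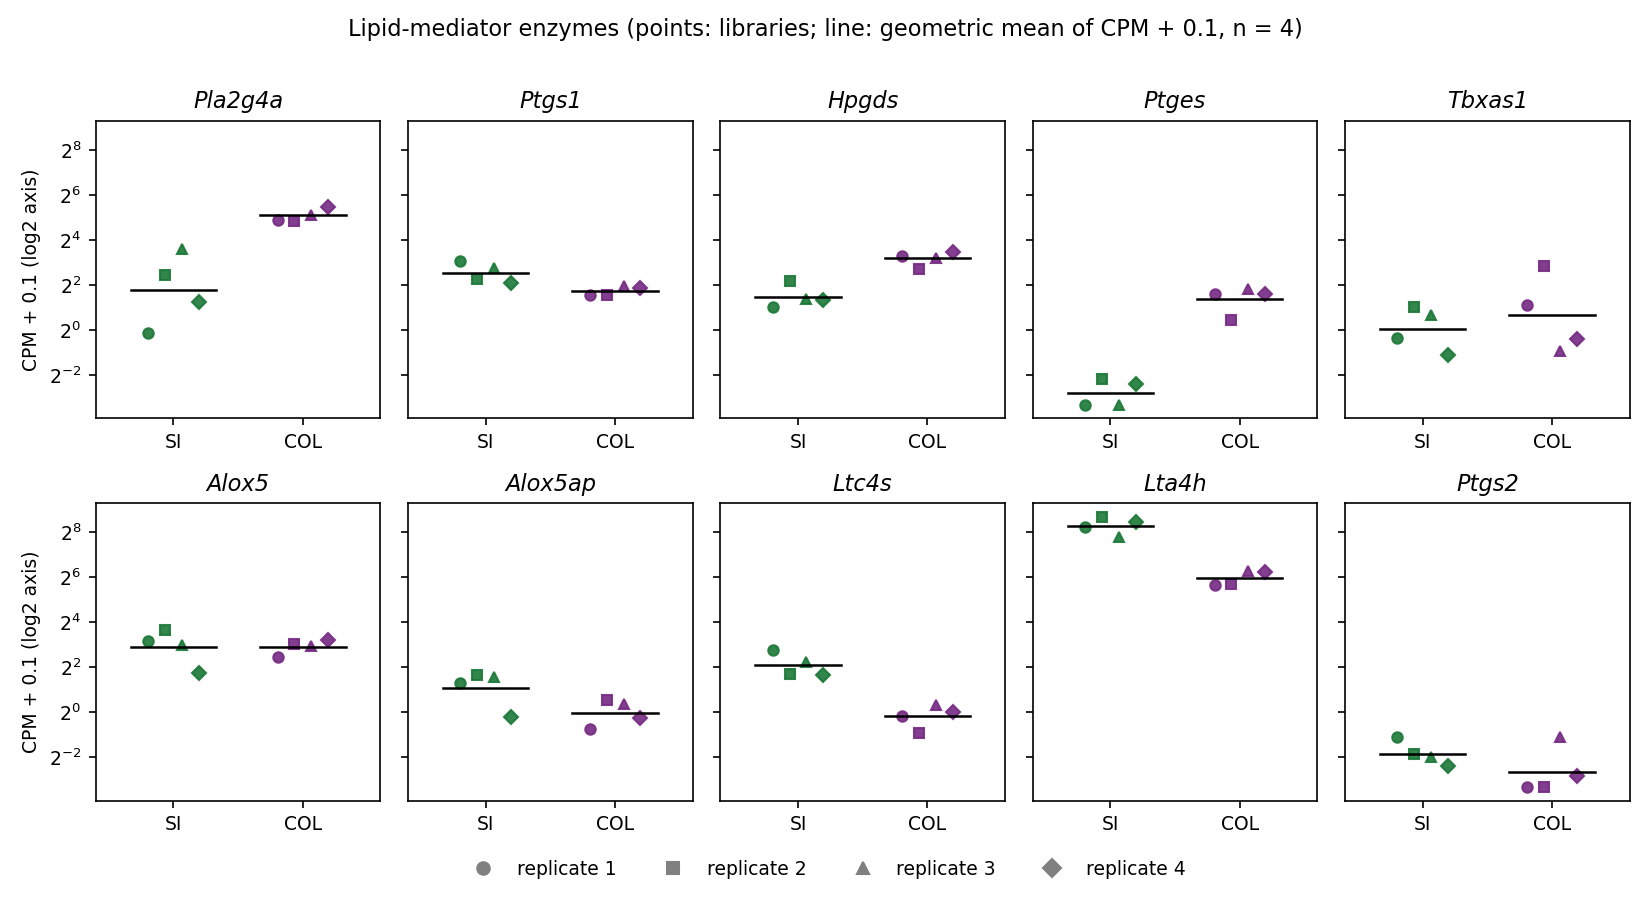
CPM + 0.1 on a log2 axis for 10 genes of lipid mediator synthesis in each library, with the geometric mean as a line and symbols for the replicate. Pla2g4a, Hpgds and Ptges lie higher in COL, Ltc4s and Lta4h lie higher in SI, Ptgs1 lies higher in SI without a call, and Ptgs2 was not tested.

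The relatives of the tuft cell genes were read as a check on family members. Vil1, the villin of the brush border, was at 2580 to 4311 CPM in SI against 231 to 477 CPM in COL (3.25, SE 0.47, adjusted p = 0.00038, edgeR), while its relative Avil was not called. Gnat1, a transducin, was at 1.39 to 2.84 CPM in SI against 0.059 to 0.503 CPM in COL (3.28, SE 0.75, adjusted p = 0.00657, edgeR), while Gnat3 was not called and Gnat2 was not either (-0.99, adjusted p = 0.388, edgeR). The channel Trpm4 was at 147 ± 22.9 CPM in SI against 152 ± 22.8 CPM in COL (SD, n = 4). Pou2f1 (-0.88, adjusted p = 0.0596, edgeR) and the kinase Dclk2 (-1.58, adjusted p = 0.254, edgeR) were not called.

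No tuft cell gene was called for a tissue difference that depends on sex. The interaction of tissue and sex was called for 0% of the 14491 genes, with 761 at an unadjusted p below 0.05 in edgeR and none of the 8 tuft cell genes among them (lowest adjusted p = 0.909, edgeR). With library size scaling the interaction was again called for 0 genes, with 926 genes and 1 of the 8 tuft cell genes at an unadjusted p below 0.05. The difference in mean log2 CPM (SI minus COL) was 0.04 in female and 1.15 in male mice for Avil, and -2.23 and -1.18 for Hpgds. These values rest on 2 mice of each sex.

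Once the tissue means were removed, tuft cell genes tended to be high or low in the same libraries, without moving as a block. Over the 28 pairs of the 8 genes tested, the median Pearson r of the deviations in log2 CPM over the 8 libraries was 0.35, with 24 pairs above 0, against a median of 0.01 over all pairs of genes tested. Dclk1 and Pou2f3 were the closest pair (r = 0.89), followed by Avil and Alox5 (r = 0.74). Ptgs1 ran against Pou2f3 (r = -0.32) and Hpgds (r = -0.31). The mean deviation of the 8 genes was highest in SI2 (0.42) and lowest in SI4 (-0.52). These correlations share libraries, depth and mitochondrial share, and they are descriptions over 8 points.

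**Figure D4:**
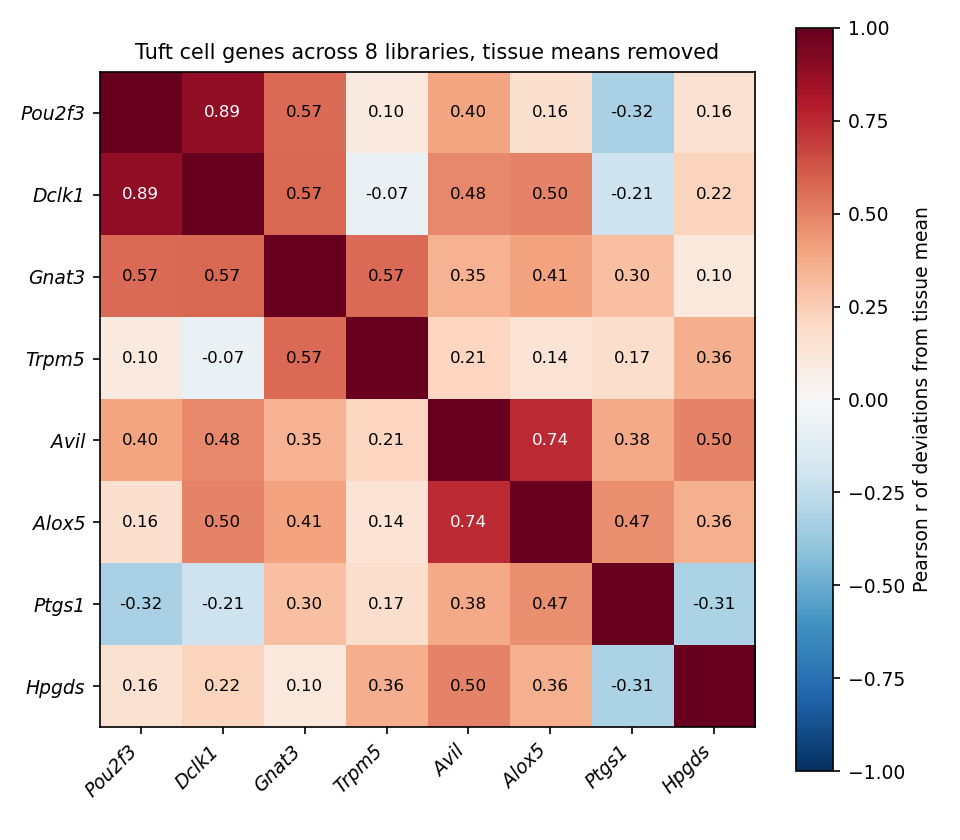
Pearson r between the tuft cell genes tested, computed from the deviations of log2 CPM from the tissue mean over 8 libraries. Red is positive and blue negative, and the highest value off the diagonal is 0.89 for Dclk1 and Pou2f3.

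The genes whose deviations were most like the mean of the tuft cell genes were Gm37101 (r = 0.97), Gbe1, 2810454H06Rik, Cdk10, Camkk1, Tnc, Scel, Phf6, Gm12454 and Col12a1 (r = 0.93), over 8 libraries. None of them is in the lists of tuft-linked genes. The closest of the linked genes was Alox5ap (r = 0.83), at rank 143, followed by Ptpn18 (r = 0.74) at rank 363. These ranks are percentiles 99.0 and 97.5 of the genes tested. Of the named linked genes, Gnat2 (r = 0.63), Lrmp (r = 0.63) and Il33 (r = 0.60) were next, at percentiles 93.9, 93.9 and 92.8. At the other end of the linked genes lay Trpm4 (r = -0.47), Il13ra1 (r = -0.46) and the regulator 1810046K07Rik (r = -0.43).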

How the data were processed

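RNA-Seq was performed on 4 SI and 4 COL crypt libraries from the same 4 mice. Paired-end reads were trimmed by Trimmomatic 0.36, and STAR 2.5.2b served for alignment to mm10 and for counting (versions per the submitters' processing notes, which list mm9 as well). The authors deposited whole-number counts per Ensembl gene, without normalization. The annotation release and the use of strand are not given in the sources used here. The isolation protocol, described for organoid culture, scrapes villi off the SI and keeps the colon longer in EDTA, so the tissues differ in handling too. Symbols, coordinates and transcripts came from GENCODE vM21 (GRCm38), which matched 45143 of the identifiers and not 563. Promoter windows came from RefSeq (GRCm38.p6).

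From the counts, R 4.3.3 with edgeR 4.0.16 (TMM, filterByExpr by tissue, quasi-likelihood test, Benjamini-Hochberg over all genes tested, threshold 0.05) gave all fold changes. The filter asks for about 10 counts in at least 4 libraries. Intervals are at 95%. Log2 CPM used a prior count of 2, and permutation tests and plots an offset of 0.1 CPM. The upper limit for a count of 0 is 3 counts. Genes too low for the filter were compared by exact permutation tests. Alternatives were library size scaling, DESeq2 1.42.0, limma 3.58.1 (voom), the donor mouse as a block, no filter, at least 10 counts in every library, mitochondrial share or sex as a covariate, each library left out and, added after seeing the data, another offset, scaling, a sign-flip test within mice and left-out libraries for the genes under the filter. Scripts were tested on simulated data.

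Named were all 10 tuft cell genes, every linked gene that was called, up to 4 uncalled genes of each list by mean CPM, the 10 genes most like the tuft cell mean, and marker genes beside a result. Of the signalling list, 1 uncalled gene that the rule names is not reported here. Genes of the linked lists with too few counts (Il13, Il4, Tslp, Ptgs2 and Ptgds) were named after their values were seen. The members and lists were chosen with earlier results of these data known. SI and COL libraries are paired by donor mouse in the labels. The correlation of their deviations from the tissue means was -0.24, 0.39, -0.08 and 0.33 for mice 1, 2, 3 and 5. All library pairs of a tissue differed beyond sampling noise (chi-square per gene at least 76.1). The spread between 4 mice limits precision, and counting error adds to it for Il25, Sucnr1 and Gnat3.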

Additional observations from a re-analysis of the deposited data

Results flagged for a closer look

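Trpm5 in COL was flagged because 1 library stood far from the others of its group. COL3 had 20.9 CPM and the other 3 COL libraries 10.6 to 12.3 CPM, a gap of 0.836 of the whole range above Dixon's 95% critical value for 4 samples. It was the only flag in 20 groups of 4 libraries tested, and chance flags about 1 in 20.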

How the results depend on the processing

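The count of tuft cell genes higher in SI was 0, and 1 with no filter on low counts (Sucnr1, log2 fold change 4.52, adjusted p = 0.00386, edgeR). The count higher in COL was 1 and rose to 2 with library size scaling, by Dclk1. Of the linked genes, 8 were higher in SI, and 5 with at least 10 counts in every library, where fewer genes were tested. The 3 higher in COL became 7 with library size scaling and 5 with DESeq2, with the donor mouse as a replicate block in limma-voom, and with the mitochondrial share as a covariate. Apart from Ptpn6, Ptpn18 and, in limma-voom, Pou2f1 (adjusted p = 0.0486), and from the exact test of Sucnr1 (0.125 within mice), the block changed no other call of a named gene. Over all genes, library size scaling turned 2253 calls higher in SI and 1863 higher in COL into 1115 and 4788.

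Library size scaling moved the median of all genes by -0.73, and with it the log2 fold changes of genes that were not called changed sign for Trpm5 (-0.27), Avil (-0.062), Alox5 (-0.65), Itpr3 (-0.54), Plcb2 (-0.32), Gfi1b (-0.38), Lrmp (-0.29), Il17rb (-0.020) and Cd300lf (-0.26). Relative to the median these genes hardly moved, for example from 0.58 to 0.56 for Trpm5, 0.78 to 0.76 for Avil and 0.19 to 0.18 for Alox5. Alox5 also changed sign in limma-voom (-0.058), with its replicate block (-0.0095) and with at least 10 counts in every library (-0.0046). For these 3 small values of Alox5 the cause was not tested. Leaving out each library in turn gave log2 fold changes that crossed 0 for uncalled genes, from -0.26 to 0.14 for Pou2f3, -0.16 to 0.35 for Alox5, -0.040 to 0.77 for Plcb2, -0.22 to 0.068 for Spib, -1.56 to 0.014 for Tbxas1 and -0.14 to 0.051 for Trpm4. It added calls for Ptpn6 without COL4 (adjusted p = 0.0496) and Pou2f1 without COL3 (0.0341), both by edgeR, and removed none of a named gene tested. Depth limits Il25, whose highest count was 10.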
